A study of Mus musculus with 4 samples.

Results

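EphA receptors are cell-surface tyrosine kinases encoded in the mouse by a small gene family, and 9 members (Epha1 to Epha8 and Epha10) were described here of 55573 genes in the deposited table. They were chosen by gene symbol, through the Ensembl identifiers of the table, and all 9 listed symbols were found. Transcript levels were measured by RNA sequencing in 4 libraries of SmoWT cells, a neurosphere culture of mouse medulloblastoma, the cerebellar tumour, of the subtype driven by Sonic Hedgehog signalling. All cells were of the C57BL/6 strain and the genotype Ptch1+/-, Trp53-/-, so that the controls carried the same mutations as the treated cells. In one group of 2 libraries the cells had been kept for 24 h with the solvent DMSO, and in the other group of 2 with 0.1 µM GDC0449 (vismodegib), which blocks Smoothened, the signal transducer of the Hedgehog pathway. The labels give neither the number of tumours behind the cells nor whether replicates were separate cultures, so the spread behind the p-values is that of these 4 samples and may be technical.

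Eph receptors bind ephrins on neighbouring cells and signal at the contact between the cells, with effects on cell shape and adhesion. EphA receptors bind chiefly the ephrin-A ligands, which are held in the membrane by a lipid anchor, while EphB receptors bind the membrane-spanning ephrin-B ligands, and EphA4 binds ligands of both classes. In the developing brain the family is known for guiding axons, for sorting cells and for setting boundaries between them. The comparison asked which EphA transcripts differed after 24 h of Smoothened inhibition.

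Between 16329721 and 20790030 reads were assigned to genes in a library, and the Hedgehog target Gli1 was 7.61-fold lower in GDC0449, from 281 and 263 CPM to 38.8 and 32.7 CPM. CPM here are read counts scaled by library size and TMM factor. Ptch1 and Hhip, chosen with Gli1 to check the treatment, were 1.95-fold and 5.90-fold lower. Counts of replicates differed beyond sampling noise (chi-square of 4.25 and 3.42 per gene in DMSO and GDC0449), and each library was kept as a sample. Of 15472 genes tested with edgeR, 1333 were called higher and 588 lower, at an adjusted p below 0.05 and a change over 1.5-fold, and the median log2 fold change was 0.01. Of 10 markers of granule neuron progenitors, the cells this tumour resembles, Atoh1 and Zic1 were well expressed, at 56.8 and 542 CPM on average in DMSO, whereas Barhl1 had only 4 to 10 reads a library.

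Among the 9 EphA genes, Epha8 fell and Epha3, Epha4, Epha1, Epha2 and Epha10 were called higher in GDC0449. Epha7 was higher by less than the fold threshold, and Epha5 and Epha6 had too few reads to be tested. Over all tested genes 8.62% were called higher and 3.80% lower. The called genes were of unlike abundance. Epha3, Epha4 and Epha8 lay above 5 CPM on average, where 6.21% of genes were called higher and 3.46% lower. Epha1, Epha2 and Epha10 lay below it, where 14.2% were called higher and 4.58% lower. In each of the 7 tested EphA genes the libraries of the groups did not overlap, which also held for 33.6% of all tested genes with GDC0449 higher and 32.2% with GDC0449 lower. The plot of EphA levels by library shows both abundance classes.

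**Figure D1:**
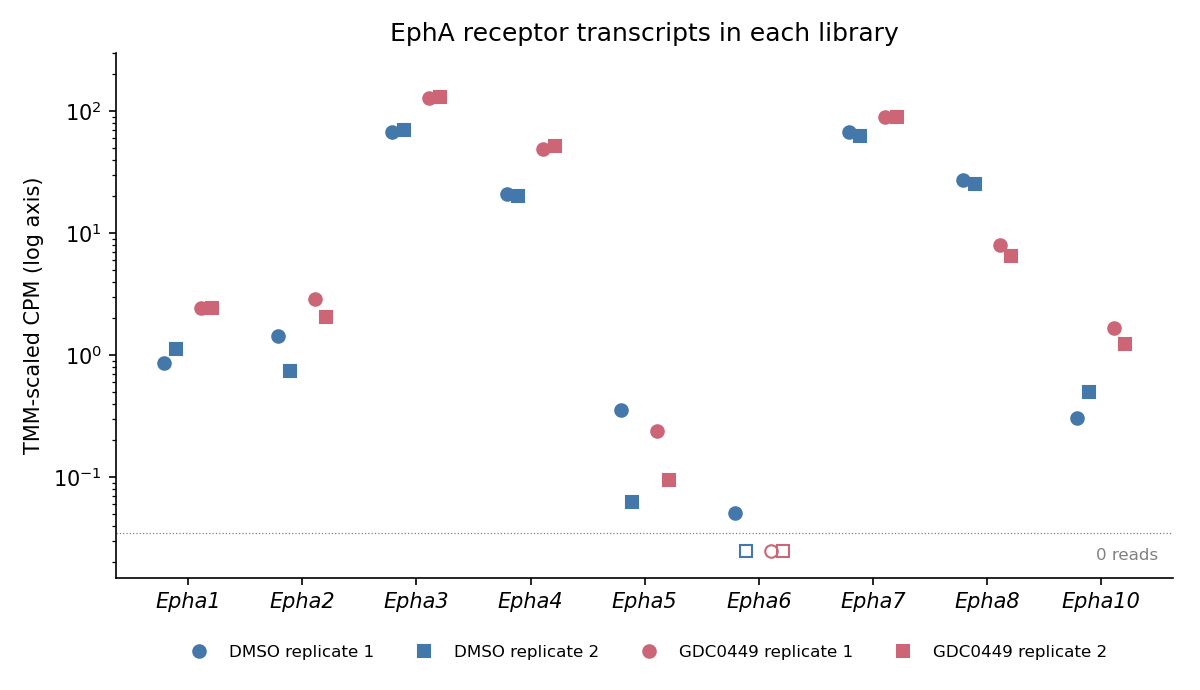
TMM-scaled CPM of each EphA gene (log axis) in the 2 DMSO (blue) and 2 GDC0449 (red) libraries, with circles for replicate 1 and squares for replicate 2, and open symbols below the dotted line for libraries with 0 reads. Epha8 is the gene whose GDC0449 libraries, at 7.97 and 6.54 CPM, both lie below its DMSO libraries with a called difference.

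Epha8 encodes a receptor known for a role in axon guidance in the midbrain, and its transcript went from 27.4 and 25.5 CPM in the controls to 7.97 and 6.54 CPM in the treated libraries. These values rest on 538, 411, 168 and 138 reads. Both treated libraries were lower than both controls. The fall was 3.65-fold, with a 95% interval of 3.07 to 4.33 and a log2 fold change of -1.87 ± 0.12 (SE, n = 2 per group, edgeR adjusted p = 6.48e-18). Of the 15472 genes tested, 98 fell by more. In a bulk sample, fewer cells that express a gene and less RNA per cell cannot be told apart. The authors' FPKM, by definition a measure of reads scaled by gene length and depth, were 3.75 and 3.55 in DMSO and 1.11 and 0.913 in GDC0449.

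Epha8 also diverged from Epha3 and Epha4 in ratios of reads within each library, where scaling between libraries plays no part. Such a ratio does not show which gene rose or fell, and the directions rest on the scaled CPM. Per 100 reads of Epha3, the controls had 40.3 and 36.5 reads of Epha8 and the treated libraries had 6.24 and 5.03. Per 100 reads of Epha4 there were 130 and 126 reads of Epha8 in DMSO and 16.3 and 12.6 in GDC0449. Epha8 reads thus outnumbered those of Epha4 in both controls and were far fewer in both treated libraries.

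Epha8 (ENSMUSG00000028661) spans positions 136929419 to 136956816 of chromosome 4, minus strand, in the mouse build GRCm38, the assembly called mm10. The nearest tested protein-coding gene on each side was looked up after the values of Epha8 had been seen. On one side, 93430 bases away and with 3 untested protein-coding genes between, the EphB receptor gene Ephb2 was higher in GDC0449, with a log2 fold change of 0.96 ± 0.07 (SE, edgeR adjusted p = 9.08e-16). On the other side, 22915 bases away, the zinc finger gene Zbtb40 averaged 44.6 CPM in the controls and 45.0 CPM after treatment (log2 fold change 0.01 ± 0.08, edgeR adjusted p = 0.930). Neither of these tested genes fell.

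Epha3, a receptor for ephrin-A5 studied in the mapping of retinal axons, rose 1.87-fold, from 67.9 and 69.9 CPM in the controls to 128 and 129.9 CPM with the inhibitor. It had the most reads of the family, 7894 over the 4 libraries. The 95% interval ran from 1.70 to 2.06, and the log2 fold change was 0.90 ± 0.07 (SE, n = 2 per group, edgeR adjusted p = 9.81e-16). The replicates of each group lay close together, and the groups lay far apart. Epha3 (ENSMUSG00000052504) occupies positions 63543534 to 63864175 of chromosome 16.

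Epha4, which binds ephrins of both classes and acts in the wiring of spinal and forebrain circuits, went from 21.1 and 20.3 CPM in the controls to 49.0 and 52.0 CPM with the inhibitor. It rose 2.43-fold, with a 95% interval of 2.15 to 2.76 (log2 fold change 1.28 ± 0.09, SE, n = 2 per group, edgeR adjusted p = 7.19e-17). This interval lies above that of Epha3, although the difference between the genes was not itself tested. Epha4 (ENSMUSG00000026235) occupies positions 77367185 to 77515088 of chromosome 1. The calls of Epha3, Epha4 and Epha8 held in all 13 alternatives tried. Their log2 fold changes ran from 0.86 to 0.94, from 0.95 to 1.32 and from -2.02 to -1.21. Among the alternatives, adjusted p alone reuses the reported fit without the fold threshold, so it could not lose a call.

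Epha7, which is known to give rise to variants without the kinase domain as well as the full receptor, had 67.5 and 63.0 CPM in the controls and 90.0 and 90.2 CPM with the inhibitor. The ratio was 1.38-fold, with a 95% interval of 1.25 to 1.52. It passed the adjusted p at 6.23e-07 with edgeR and missed the 1.5-fold threshold. The counts are summed over the gene (ENSMUSG00000028289, chromosome 4, 28813131 to 28967499) and do not separate the variants. Both treated libraries were higher than both controls.

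The DNA at the start sites is shown for Epha8, which fell, and for Epha3, Epha4 and Epha7, the abundant members that were higher, so that the windows can be compared. Each window runs from 250 bases before to 50 after a RefSeq transcription start on GRCm38.p6, on the strand of the gene. Capitals mark GGGCGG or its complement CCGCCC, the core of the GC box, which is bound by Sp-family factors. The windows are chr4:136956767-136957066 (minus strand) for Epha8, chr16:63864126-63864425 (minus) for Epha3, chr1:77515039-77515338 (minus) for Epha4 and chr4:28812881-28813180 (plus) for the upstream of 2 starts of Epha7.
Epha8: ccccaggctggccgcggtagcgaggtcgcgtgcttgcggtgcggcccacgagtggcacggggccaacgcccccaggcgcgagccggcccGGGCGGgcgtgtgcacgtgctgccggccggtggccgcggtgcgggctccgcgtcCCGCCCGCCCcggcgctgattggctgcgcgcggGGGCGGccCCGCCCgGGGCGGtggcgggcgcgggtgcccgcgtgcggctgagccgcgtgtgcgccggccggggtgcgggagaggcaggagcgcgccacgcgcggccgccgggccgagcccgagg
Epha3: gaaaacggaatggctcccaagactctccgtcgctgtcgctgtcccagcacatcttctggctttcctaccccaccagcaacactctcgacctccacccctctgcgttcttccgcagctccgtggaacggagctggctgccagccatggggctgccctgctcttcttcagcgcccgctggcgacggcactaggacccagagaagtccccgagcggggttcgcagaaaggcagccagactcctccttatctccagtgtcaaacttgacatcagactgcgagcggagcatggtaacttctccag
Epha4: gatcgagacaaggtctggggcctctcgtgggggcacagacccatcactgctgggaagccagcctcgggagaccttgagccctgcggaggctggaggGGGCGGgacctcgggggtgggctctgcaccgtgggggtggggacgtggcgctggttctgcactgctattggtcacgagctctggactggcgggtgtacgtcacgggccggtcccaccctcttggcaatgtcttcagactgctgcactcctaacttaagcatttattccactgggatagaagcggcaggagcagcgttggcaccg
Epha7: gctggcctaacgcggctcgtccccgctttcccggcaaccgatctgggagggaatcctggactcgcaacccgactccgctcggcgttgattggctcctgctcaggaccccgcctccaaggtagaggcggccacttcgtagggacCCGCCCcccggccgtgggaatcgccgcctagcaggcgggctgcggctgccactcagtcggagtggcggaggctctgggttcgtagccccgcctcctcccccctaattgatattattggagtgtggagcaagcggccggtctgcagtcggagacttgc

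The Epha8 window differed from the others in base composition. It was 84.3% G and C and held 56 CpG pairs, a number reached by 0.195% of the 32851 promoter windows in the same RefSeq table. Epha3, Epha4 and Epha7 had 18, 17 and 28 CpG pairs, against a median of 7 over all windows. The Epha8 window held 6 matches to GGGCGG on either strand, 2 of them overlapping, while Epha4 and Epha7 had 1 each and Epha3 had 0. At least 1 match was present in 35.7% of all windows and 6 or more in 1.35%.

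The 9-letter Gli motif GACCACCCA, searched on both strands, was found in none of the windows of the 9 EphA genes, and 0.253% of all windows held it. E-boxes (CANNTG), bound by factors such as Atoh1 and Neurod1, were present in 72.3% of all windows. Among the EphA genes there were 5 in Epha6, 2 in Epha1 and 1 each in Epha8 and Epha10, and 0 in the windows of Epha2, Epha3, Epha4, Epha5 and Epha7. These are matches of letters in a short window, and binding was not measured. The map of promoter windows places the matches.

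**Figure D2:**
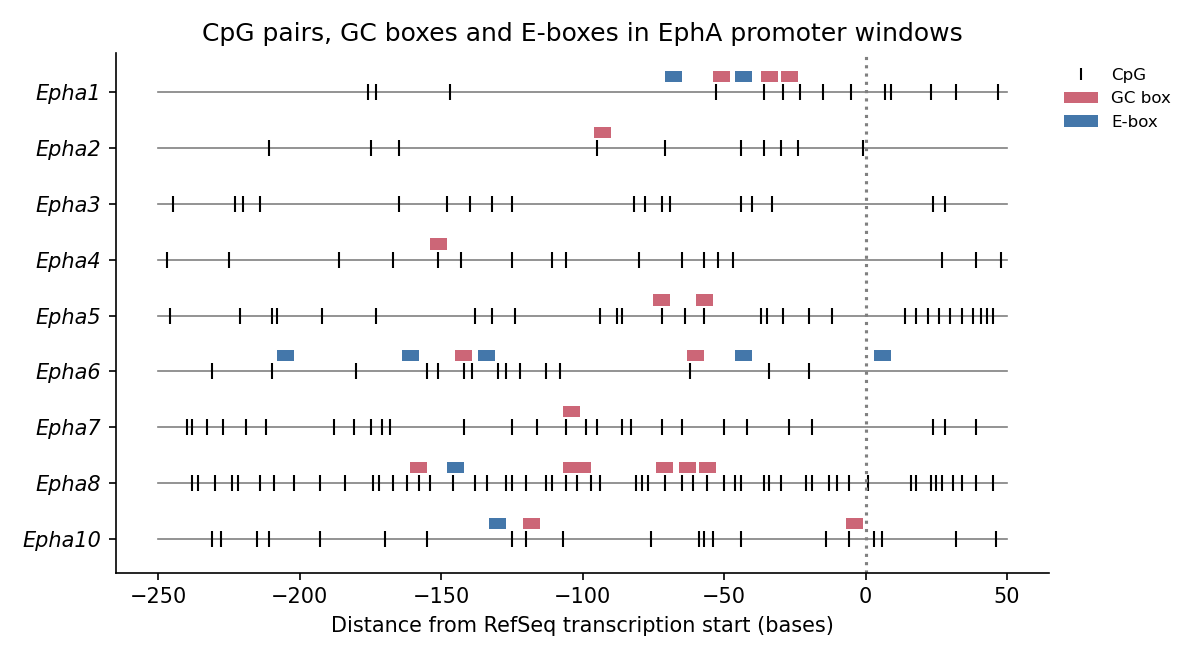
CpG pairs (black ticks), GC boxes (red) and E-boxes (blue) in the window from 250 bases before to 50 after the RefSeq start of each EphA gene, by distance in bases from the start (dotted line). The window of Epha8 holds 56 CpG pairs and 6 GC boxes, and that of Epha3 holds 18 and 0.

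The other genes called higher were scarce. Epha1, the family's founding member and known mainly from epithelia, had 17 and 18 reads in DMSO and 51 in each GDC0449 library. These counts correspond to 0.865 and 1.12 CPM in DMSO and 2.42 in each treated library, a difference of 2.45-fold with a 95% interval of 1.56 to 3.85 (edgeR adjusted p = 0.00119). The call was lost with DESeq2 (adjusted p = 0.0570) and without DMSO replicates 1 and 2 in turn. In these last fits its log2 fold change was 1.11 and 1.47. A fit that leaves 1 library in a group has less power for any gene, which holds for every library left out below. Of the bases in Epha1 exons 6.01% also lie in exons of Zyx on the opposite strand, which averaged 34.9 CPM in the controls and 43.4 CPM after treatment. The other called EphA genes shared at most 1.10% of their exonic bases with another gene. Whether counting used strand is not given in the sources used here.

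Epha2, an epithelial receptor for ephrin-A1, had 28 and 12 reads in DMSO and 61 and 43 in GDC0449. This gave 1.43 and 0.745 CPM against 2.89 and 2.04 CPM, so that replicates of a group differed more than in the abundant genes. The difference was 2.21-fold, with a 95% interval of 1.40 to 3.48 (edgeR adjusted p = 0.00445). Epha2 lost its call with DESeq2 (adjusted p = 0.106) and with no filter on low counts (edgeR adjusted p = 0.0902). The call was also lost without DMSO replicates 1 and 2 in turn (log2 fold change 1.72 and 0.78) and without GDC0449 replicate 1 (0.87).

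Epha10, which is known to lack kinase activity, had 6 and 8 reads in DMSO and 35 and 26 in GDC0449, or 0.305 and 0.497 CPM against 1.66 and 1.23 CPM. It passed the filter on low counts only through the GDC0449 libraries, so a difference was built into its being tested. The estimate was 3.64-fold higher, with a wide 95% interval of 1.95 to 6.79 (edgeR adjusted p = 0.000785). The call of Epha10 was lost with DESeq2 (adjusted p = 0.0504) and without DMSO replicates 1 and 2 in turn (log2 fold change 1.53 and 2.21). With DESeq2, 5.56% of genes with an adjusted p were called higher, Epha3 and Epha4 among them, and 3.18% lower, Epha8 among them.

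Epha5 and Epha6, both known as receptors of neural tissue, were not tested. Epha5 had 7 and 1 reads in DMSO and 5 and 2 in GDC0449, and the groups overlapped. Epha6 had 1 read in DMSO replicate 1 and 0 in the other libraries. Against 77944561 reads in all libraries, a floor of 3 reads corresponds to 0.0385 CPM. It applies to a gene with 0 reads throughout and covers counting error only. Neither gene had 0 reads throughout, and Epha5 averaged 0.209 CPM in DMSO and 0.166 CPM in GDC0449. No fold was computed for either gene.

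**Figure D3:**
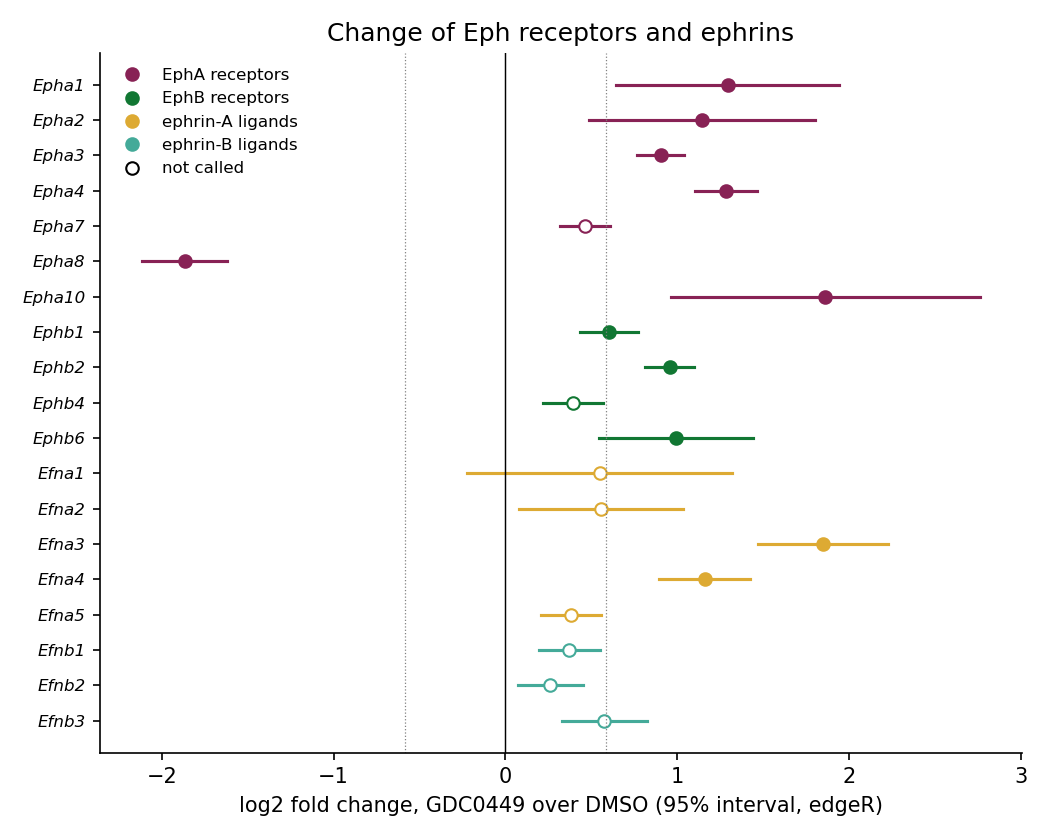
Log2 fold change of GDC0449 over DMSO with its 95% interval from edgeR for the tested EphA and EphB receptors and ephrins, with filled points for called genes, open points for genes not called and dotted lines at the 1.5-fold threshold. Epha8, at -1.87, is the gene below 0, and the intervals of Epha1, Epha2 and Epha10 are wider than those of Epha3, Epha4 and Epha7.

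Per length of exon, the order of the EphA transcripts changed between the groups. In DMSO, Epha3 was at 7.92 ± 0.159 CPM per kb (SD, n = 2), followed by Epha7 at 6.60 ± 0.324, Epha8 at 5.61 ± 0.279 and Epha4 at 2.57 ± 0.0718 CPM per kb. In GDC0449, Epha3 stood at 14.8 ± 0.168 CPM per kb, Epha7 at 9.11 ± 0.0125, Epha4 at 6.27 ± 0.265 and Epha8 at 1.54 ± 0.215 CPM per kb. Epha8 and Epha4 thus exchanged places, and the libraries of neighbours in these orders did not overlap. Epha1 and Epha2 followed at 0.252 and 0.232 CPM per kb in DMSO and at 0.616 and 0.528 in GDC0449, and this pair overlapped in both groups. Epha10 came next at 0.0557 and 0.201 CPM per kb, above Epha5 and Epha6.

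The summed level of the family was 23.7 and 22.9 CPM per kb in the controls and 33.1 CPM per kb in each treated library. Epha8 made up 24.5% and 23.7% of that sum in DMSO and 5.12% and 4.19% in GDC0449. Epha3 made up 33.0% and 35.2% in DMSO and 44.5% and 45.1% in GDC0449. Epha4 went from 11.1% and 11.0% to 18.4% and 19.5%, while Epha7 held 28.8% and 27.9% in DMSO and 27.5% in each treated library. The shares sum to the whole, so that a lower share of Epha8 raises the others. They also depend on the length used. Per kb of exon, Epha8 stood at 5.61 CPM and Epha3 at 7.92 CPM in DMSO. Per kb of coding sequence the 2 genes stood at 8.78 and 23.3 CPM, and by the authors' FPKM at 3.65 and 8.33. By those measures the share of Epha8 in the controls is smaller.

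**Figure D4:**
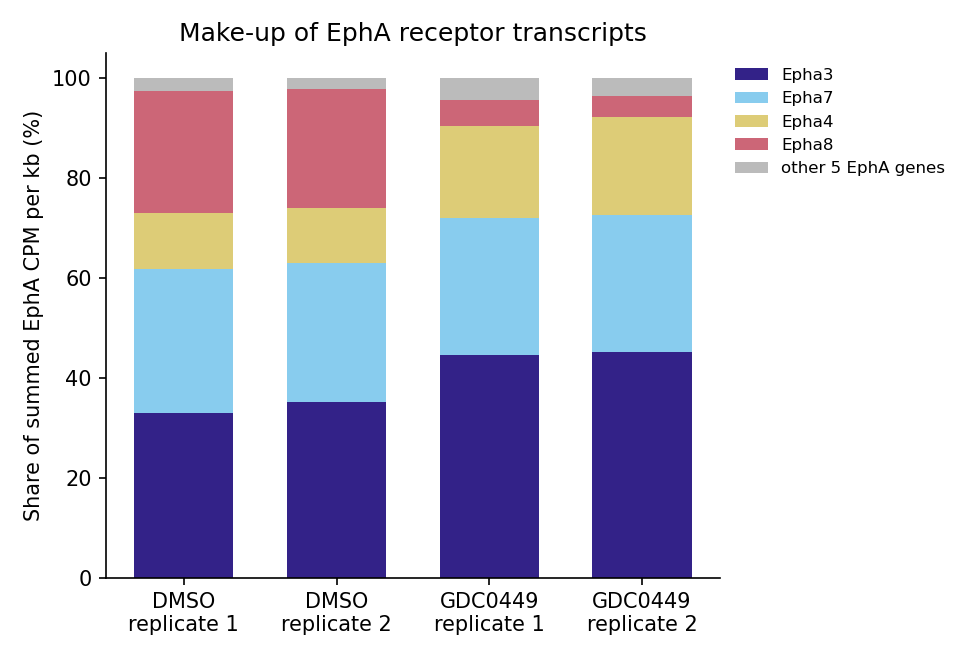
Share of the summed EphA CPM per kb of exon (%, stacked bars) taken by each abundant EphA gene in the 4 libraries, with the other 5 genes in grey. Epha8 takes 24.5% and 23.7% of the sum in the controls against 5.12% and 4.19% with the inhibitor.

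Genes of the same signalling system were described by lists. Over all tested genes 8.62% were called higher and 3.80% lower, and the median log2 fold change was 0.01. Of 5 EphB receptors, 3 were called higher and 0 lower, and the 4 tested members had a median log2 fold change of 0.78. Ephb2, which also binds ephrin-A5, had 80.5 and 69.2 CPM in the controls and 153 and 138 CPM with the inhibitor. Ephb6, which like Epha10 is known to lack kinase activity, had 2.49 and 2.42 CPM against 5.17 and 4.64 CPM. It lay below 5 CPM on average, where 14.2% of tested genes were called higher. Ephb1 was at 37.5 and 35.0 CPM against 58.8 and 51.5 CPM. The calls of Ephb1 and Ephb6 were lost without DMSO replicate 1 (log2 fold change 0.66 and 1.01) and without DMSO replicate 2 (0.55 and 0.97). That of Ephb1 was also lost without GDC0449 replicate 1, where its log2 fold change of 0.51 missed the fold threshold. Ephb4 had a log2 fold change of 0.39, under the fold threshold, and Ephb3 had 0 reads in all libraries.

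Among ligands, 2 of 5 ephrin-A genes and 0 of 3 ephrin-B genes were called higher with edgeR, and 0 lower. The shares over all tested genes were 8.62% higher and 3.80% lower. Efna3 averaged 2.61 ± 0.0885 CPM (SD, n = 2) in the controls and 9.39 ± 0.545 CPM with the inhibitor, and Efna4 7.71 ± 0.977 CPM against 17.3 ± 1.36 CPM. Opposite-strand genes share 14.1% of Efna3 and 10.5% of Efna4 exonic bases. Efna5, a ligand of Epha3, had 32.5 and 32.1 CPM against 44.8 and 39.3 CPM, a log2 fold change of 0.38 under the fold threshold. All 3 ephrin-B genes were higher at an adjusted p below 0.05 (and so also unadjusted), as were 18.0% of all tested genes, but their log2 fold changes of 0.26 to 0.58 missed the fold threshold, and DESeq2 and limma-voom called 0 of them.

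Of 23 adaptors, kinases, phosphatases and proteases of Eph signalling, 22 were tested. From these 2 were called higher and 1 lower, with a median log2 fold change of 0.05. The shares over all tested genes were 8.62% higher and 3.80% lower. Grb10, an adaptor of receptor tyrosine kinases, fell 1.72-fold, from 273 and 275 CPM to 158 and 161 CPM. Anks1b, which encodes an adaptor with a phosphotyrosine-binding domain, was 1.55-fold higher, a call lost without DMSO replicate 1 (log2 fold change 0.56). Ptpro, a phosphatase that acts on Eph receptors, was scarce, averaging 0.534 CPM in the controls and 1.16 CPM after treatment. Its call was lost with DESeq2 (adjusted p = 0.302) and with no filter on low counts (edgeR adjusted p = 0.107). It was also lost when any 1 library was left out (log2 fold change 0.82 to 1.36).

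Summed levels of markers of the granule neuron lineage and of astrocytes were higher in both GDC0449 libraries than in both controls. Markers are said to have risen or fallen where called. Of all tested genes 8.62% were called higher and 3.80% lower. Of 11 differentiation markers 6 rose and 0 fell, and their summed level was 968 to 1036 CPM in the controls and 1814 to 1891 CPM with the inhibitor, with Gabra6 at 0 reads. Of 10 progenitor markers 5 rose and 0 fell, with sums of 1146 to 1171 and 1356 to 1431 CPM, although the transcription factor gene Gli2, at a log2 fold change of -0.58, was called lower with DESeq2, without DMSO replicate 2 and without GDC0449 replicate 1. Of 9 astrocyte markers 3 were called higher and 0 lower, with sums of 216 to 231 and 337 to 343 CPM. Of the 7 tested, 4 had a log2 fold change above 0, and the lowest was -0.60. Slc1a2 averaged 78.1 CPM in the controls and 177 CPM after treatment, while Slc1a3 averaged 75.3 and 71.5 CPM. Aqp4 and Aldh1l1 had 0 reads in every library. Oligodendrocyte lineage markers summed to 72.1 to 73.3 and 89.6 to 89.9 CPM, with 1 of 9 called higher and Olig1 at 0 reads. Microglia and macrophage markers summed to 9.11 to 11.5 and 7.96 to 7.97 CPM, with 2 of 8 called lower. Endothelial and fibroblast markers each summed to at most 5.02 CPM in a library, with 1 of 8 and 2 of 7 called higher. Only 3 and 5 of them were tested. Pdgfrb, a member of both lists, was the gene called lower in each. The part of these changes in the EphA results was not tested.

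For each called EphA gene the protein-coding genes with the most similar profile were found among 11824 with a mean of at least 1 CPM, as the smallest Euclidean distance of centred log2 CPM over the 4 libraries. Ablim1 and Sesn2 lay nearest to Epha8, at distances of 0.0947 and 0.117. Pde1c and Apc lay nearest to Epha3, at 0.00904 and 0.0180, and Insig1 and Cttnbp2 to Epha4, at 0.0555 and 0.0560. Anxa2 and Eno4 lay nearest to Epha1, Ociad2 and Tceal5 to Epha2, and Cbln3 and Crb1 to Epha10, at 0.0742 to 0.231. With 2 groups of 2 libraries, such a distance reflects mainly a like fold change.

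**Figure D5:**
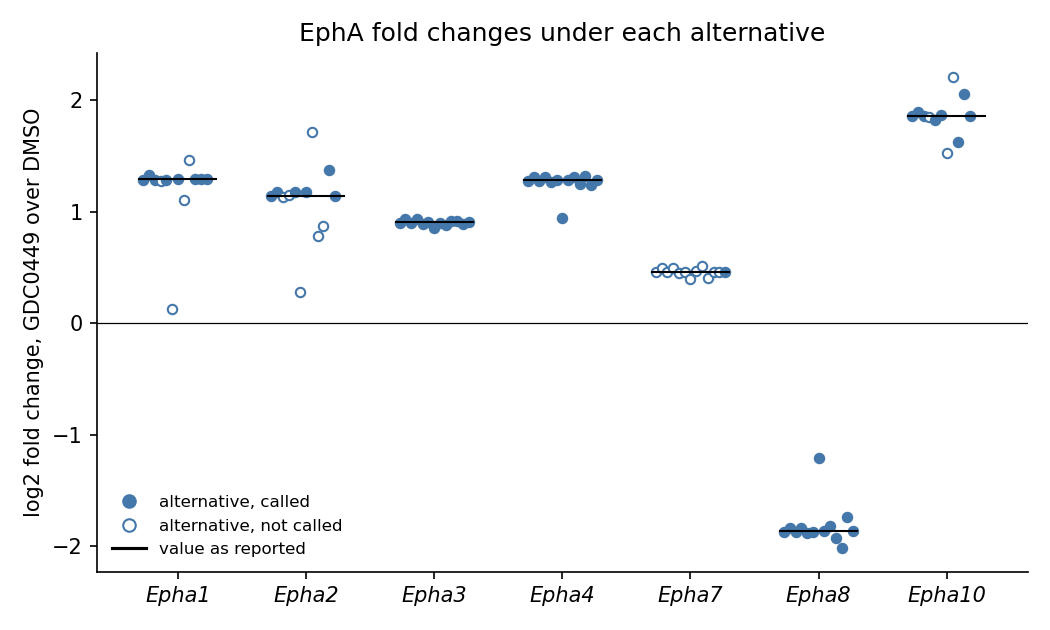
Log2 fold change of GDC0449 over DMSO of each tested EphA gene (black line) and under each alternative (points, filled where called and open where not). Points of Epha3, Epha4 and Epha8 are all filled. The lowest values of Epha1 and Epha2, 0.13 and 0.28, come from log2(FPKM + 1), where the added 1 shrinks changes of genes below 1 FPKM.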

How the data were processed

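RNA was sequenced from 4 libraries. Per the labels, reads were trimmed with Trim Galore, aligned to mm10 with HISAT2 and counted per gene with HTSeq 0.11.1; the submitters' processing notes also name DESeq2 1.26.0. The deposited counts are raw. FPKM by definition scale reads by gene length and depth, but the tool behind the authors' values is not given in the sources used here. Those values do not always follow the counts. In 546 genes with 0 counts in all libraries FPKM was at least 1 in all 4, so FPKM served only as an alternative. Reads in no gene made up 12.3% to 14.4%, ambiguous reads 4.73% to 4.91% and reads with several alignments 10.4% to 10.7%; these classes and a stray header, 6 entries in all, were left out. Symbols, spans and exon lengths came from GENCODE M21 and promoter windows from RefSeq (GRCm38.p6).

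The whole count table was fitted in R 4.3.3 using edgeR 4.0.16 (TMM factors, default filter of 10 reads in 2 libraries scaled to depth, quasi-likelihood test, group as the only term, Benjamini-Hochberg adjustment over 15472 genes). The pipeline was tested on simulated data. Standard errors are the log2 fold change over the square root of F. Intervals are 95%. Named genes are all EphA, EphB and ephrin genes, up to 5 called members of the other lists and the 2 nearest profiles; exceptions are stated. Members and lists were chosen with earlier results of these data known. Alternatives were other scalings, filters and tests, FPKM, a replicate block, each library left out and adjusted p alone. Of the gene lists, 1 is not reported here.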

Additional observations from a re-analysis of the deposited data

How the results depend on the processing

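All 87 alternative fits of the 7 tested EphA genes had the direction reported: 73 were on the same side of the threshold, 13 lost a call (in Epha1, Epha2 and Epha10) and 1 gained one, Epha7 with adjusted p alone. The 87 include adjusted p alone for each gene. That setting reuses the reported fit, so its direction was fixed and no call could be lost. The count of EphA genes called higher, 5, was 2 with DESeq2, with log2(FPKM + 1) and with the filter at 5 CPM, and ranged from 2 to 5 when a library was left out. The 2 were Epha3 and Epha4, and Epha8 was called lower in all 13 alternatives. With the filter at 5 CPM the scarce genes were not tested. With log2(FPKM + 1), the added 1 shrinks the log2 fold change of genes below 1 FPKM. Otherwise the cause was not tested. Over all genes, 1333 higher and 588 lower calls became 780 higher with DESeq2, 510 and 348 with log2(FPKM + 1), 798 and 367 with the filter at 5 CPM and 2778 and 2779 with adjusted p alone, and ranged from 505 to 1130 higher and 347 to 581 lower when a library was left out. EphB genes called higher, 3, were 1 with log2(FPKM + 1) and 1 to 3 when a library was left out. Ephrin-B genes called higher, 0, were 1 with upper-quartile scaling and with the filter at 5 CPM, 3 with adjusted p alone and 0 to 1 when a library was left out. Of the progenitor markers, 0 lower became 1 with DESeq2, 2 with adjusted p alone and 0 to 1 when a library was left out. Of the adaptor list, 2 higher and 1 lower became 1 higher with no filter, with the filter at 5 CPM and with DESeq2, 0 higher with log2(FPKM + 1), 6 higher and 3 lower with adjusted p alone, and 0 to 1 higher when a library was left out. Replicate numbers are shared between the groups, but the labels do not say that they pair samples, and the replicate difference had a correlation of 0.061 across genes. With the replicate block, 5 EphA genes were higher and 1 lower, and 1392 and 608 of all genes. On log2(FPKM + 1) the calls of Epha1, Epha2, Ephb1, Ephb6, Anks1b and Ptch1 were lost. All of these but Ephb1 lay below 1 FPKM in every library, where the added 1 shrinks a change. Epha1, with mean FPKM of 0.105 in DMSO and 0.205 in GDC0449, had a log2 fold change of 0.13 there. Ptch1, with FPKM of 0.743 and 0.753 in DMSO and 0.403 and 0.379 in GDC0449, had -0.33. Such lost calls therefore say little about these genes. The mean of Epha10 was below the minimum of 0.1 FPKM. By coding length Epha2 stood above Epha1 in both groups, and by the authors' FPKM in GDC0449. Depth limits the scarce members: Epha1, Epha2 and Epha10 rest on 137, 144 and 75 reads.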

Other observations

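The authors' FPKM of the scarce EphA genes did not always follow the counts. For Epha2 the FPKM was 0.509 and 0.166 in the GDC0449 libraries, which had 61 and 43 reads. For Epha5 it was 0.0332 and 0.000645 in the DMSO libraries, which had 7 and 1 reads. The nearest tested protein-coding genes on both sides of the other 8 EphA genes were 16. With edgeR 3 of them were called higher, 0 lower and 13 not called. Over all tested genes 8.62% were called higher and 3.80% lower, and 14.2% were called higher among those under 5 CPM on average. The log2 fold changes of the neighbours not called ran from -0.35 to 0.38, and 7 were below 0. The called ones were Tcaf2, Pros1 and Arhgef19. Tcaf2 (toward higher coordinates from Epha1, with 8 untested protein-coding genes between) averaged 0.288 CPM in the controls and 2.70 CPM after treatment. At that control level Tcaf2 could not pass the filter on low counts through the controls alone, so a difference was built into its being tested. Pros1 (from Epha3 toward lower coordinates) was at 7.67 and 16.4 CPM, and Arhgef19 (from Epha2 toward lower coordinates) at 3.38 and 5.62 CPM. These neighbours were looked up after the EphA values had been seen.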
